A study of Mus musculus with 20 samples.

Results

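Adult neurogenesis genes were followed as a list of 10 named genes: Mki67, Top2a, Eomes, Neurod1, Sox4, Sox11, Igfbpl1, Dcx, Draxin and Calb2. They are 10 of the 49671 genes counted, and all 10 were among the 18427 genes with enough counts to be tested. Bulk RNA was sequenced from 1 frozen hippocampus per mouse in 20 adult male wild-type mice aged 10 to 12 weeks, 5 in each of 4 groups. Control mice received isotype antibody. ICI mice received the immune checkpoint inhibitors anti–CTLA-4, at 1 mg 3 times a week, and anti–PD-1, at 200 µg 2 times a week. Melanoma mice carried tumours from syngeneic D4M-3A.UV2 cells and received isotype antibody. The cells were injected into the skin on both sides, 500000 per injection, 1 week before treatment began. Melanoma plus ICI mice carried the same tumours and received both inhibitors for 3 weeks. In every group the interval between the final injection and brain removal was 72 hours. The tumour was implanted in the skin and not in the brain, and the labels name no batch, litter or date.

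New granule neurons are made throughout life in the subgranular zone of the dentate gyrus. Radial glia-like stem cells there give rise to dividing intermediate progenitors, which become neuroblasts and immature neurons before they mature into dentate granule cells. Mki67 and Top2a mark dividing cells of any kind, Eomes marks intermediate progenitors, and Neurod1 drives the granule neuron fate. Sox4, Sox11, Igfbpl1 and Dcx belong to neuroblasts and young neurons, and Calb2, which encodes calretinin, to a short postmitotic stage. Draxin encodes a secreted axon guidance protein found in progenitors and young granule neurons. Prox1, a transcription factor of dentate granule cells, served as the measure of how much dentate gyrus each library held.

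The libraries held between 21990624 and 25735149 counts. Dentate and pyramidal markers were present in each one, but their amounts differed: 7 dentate markers summed to between 112.5 and 793 CPM (counts per 1000000, scaled between libraries). Markers of striatum, a neighbouring region, summed to between 106 and 151 CPM in the control and ICI libraries. They reached up to 1068 CPM in the melanoma group and up to 571 CPM in the melanoma plus ICI group. A total of 4 libraries, melanoma replicates 1, 3 and 5 and melanoma plus ICI replicate 3, stood apart with a striatum score above 4, the score being the mean log2 CPM of 8 markers. The other 16 libraries scored between 2.425 and 3.333, and values without those 4 are given beside the main results that involve the melanoma groups. In bulk RNA, fewer cells of a type and less RNA per cell cannot be told apart.

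The 6 contrasts gave 0 of 10 members with an adjusted p below 0.05 (edgeR quasi-likelihood test, Benjamini-Hochberg adjustment over all 18427 genes). Across the whole table, the share called by this rule was 0% in each contrast, and DESeq2's Wald test also gave 0 of 10 members. At an unadjusted p below 0.05, 2 of 10 members were reached in melanoma against control and 4 of 10 in melanoma plus ICI against melanoma, where 5.11% and 5.5% of all genes were. The interaction, the ICI effect with tumour minus that without, had 1 of 10 members beside 10.3% of all genes. The count was 0 of 10 for ICI against control, for melanoma plus ICI against control and for melanoma plus ICI against ICI, where 5.23%, 2.38% and 8.63% of all genes were reached. Leaving out the 4 libraries high in striatal markers gave a count of 2 of 10 in melanoma plus ICI against melanoma, beside 4.95% of all genes, and 0 of 10 in each of the other 5 contrasts, beside 2.11% to 6.75%. The 2 members in melanoma plus ICI against melanoma were not both among the 4 reached there with all libraries. Mki67, Sox4 and Draxin then lay within their SE of 0, and Sox11 turned from -0.18 to 0.37. Dropping melanoma replicate 3 gave 1 in melanoma against control, beside 4.12% of all genes, and dropping melanoma replicate 2 or 4 gave 4, beside 4.62% and 5.83%. In melanoma plus ICI against melanoma, the count was 2 without melanoma replicate 1, 3 or 5, beside 3.91%, 5.46% and 5.01% of all genes, and 5 without melanoma plus ICI replicate 3, beside 9.15%. For the interaction it was 3 without melanoma plus ICI replicate 3, beside 12.3% of all genes, and 2 without melanoma replicate 2 or 4, beside 8.43% and 9.37%. In each of the other 3 contrasts the count was 0 or 1 with 1 library left out, beside 1.6% to 12.6% of all genes.

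In melanoma against control, 8 of 10 members were higher, with a median log2 fold change of 0.55 beside -0.01 over all tested genes, and the median was -0.06 without the 4 libraries. In melanoma plus ICI against melanoma, 6 of 10 were lower with a median of -0.21, beside 0.02 over all genes, and the median was 0.10 without the 4 libraries. The interaction was below 0 for 9 of 10 members, with a median of -0.52 that came to -0.17 without them. The medians were 0.20 for ICI against control, 0.13 for melanoma plus ICI against control and -0.04 for melanoma plus ICI against ICI, and the last 2 came to 0.03 and 0.01 without the 4 libraries. For none of the 10 members did any 2 of the 4 groups separate without overlap. Over all tested genes, such separation was seen for 0.885% between control and ICI, 1.04% between control and melanoma and 0.304% between control and melanoma plus ICI. It was seen for 1.41% between ICI and melanoma, 1.45% between ICI and melanoma plus ICI and 1.54% between melanoma and melanoma plus ICI.

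The 10 members were not equally abundant. Per kilobase of gene model, the mean level over 20 libraries was 21.5 ± 11.3 CPM (SD) for Calb2 and 6.82 ± 1.77 for Neurod1. Then followed Sox4 at 2.62 ± 0.377, Sox11 at 2.10 ± 0.388, Dcx at 1.71 ± 0.446 and Igfbpl1 at 1.14 ± 0.904 CPM per kilobase. The lowest were Eomes at 0.495 ± 0.664, Mki67 at 0.301 ± 0.171, Draxin at 0.214 ± 0.0953 and Top2a at 0.206 ± 0.166 CPM per kilobase. From Sox11 down, neighbours in this order lay less than the larger SD of the pair apart, while Calb2, Neurod1, Sox4 and Sox11 were each separated by more. Sox4 was the steadiest member, with a coefficient of variation of 14.4% over the libraries, and Eomes the least steady, at 134%. Draxin, with 8 to 51 counts per library, and Top2a, with 14 to 148, rest on few reads.

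**Figure D1:**
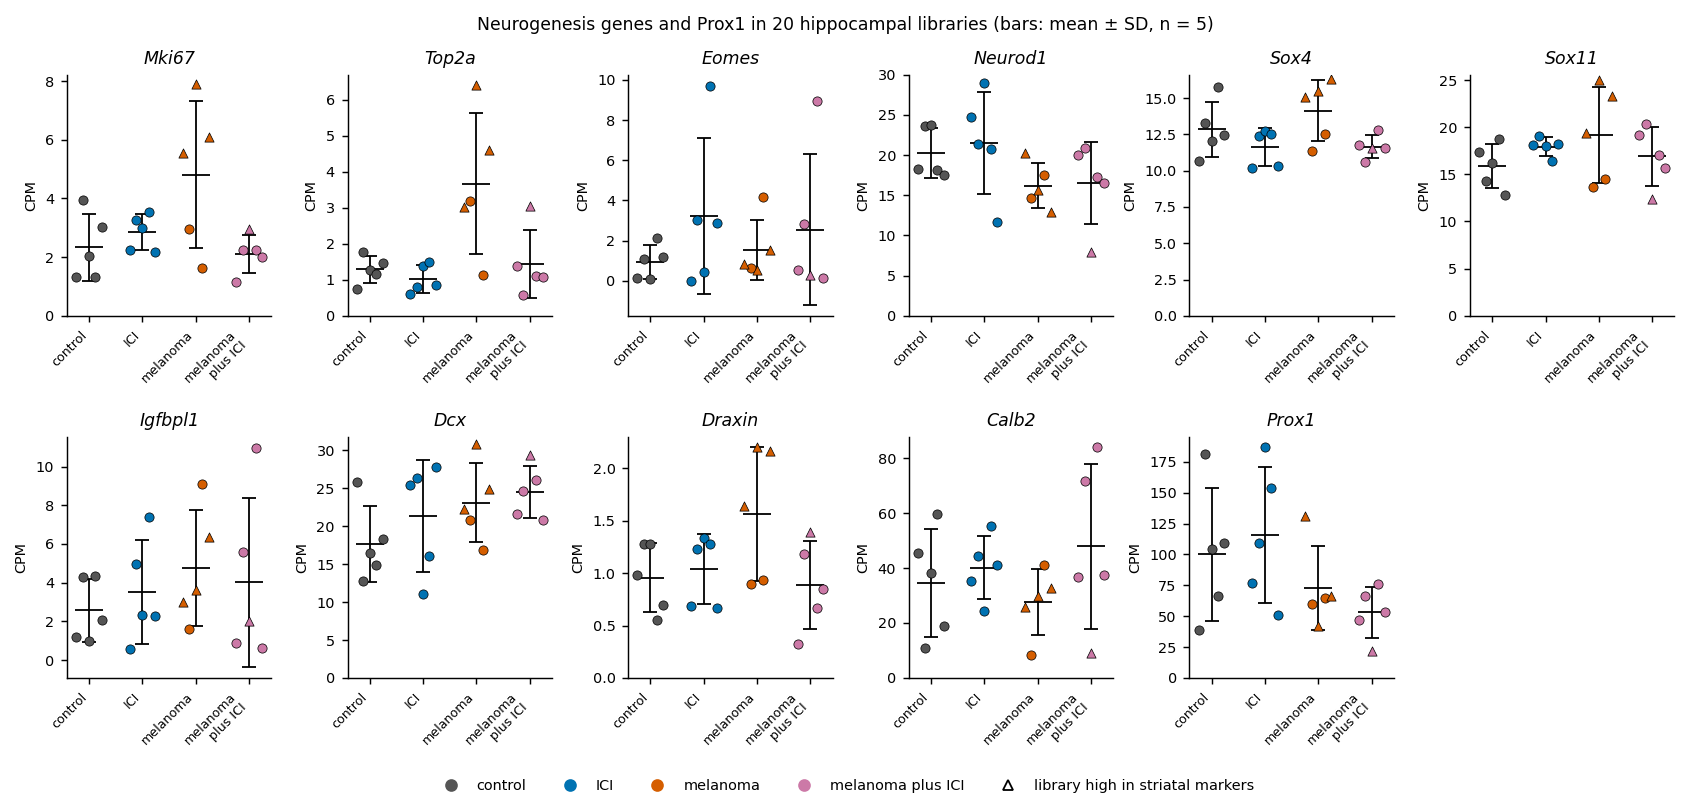
CPM (y axis) of the 10 members and Prox1 in each library (points), by group (x axis), with the group mean and SD (n = 5), and with triangles for the 4 libraries high in striatal markers. The 3 melanoma triangles are the top libraries for Mki67, from 5.55 to 7.88 CPM, while every pair of groups overlaps for each member.

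Mki67 and Top2a stood highest in melanoma libraries. Mki67, on chromosome 7, encodes the Ki-67 protein that coats mitotic chromosomes, and Top2a, on chromosome 11, encodes the topoisomerase that untangles DNA before cell division. The 250 bases upstream of their RefSeq starts (GRCm38.p6) are shown beside those of Draxin, which was high in the same libraries but does not belong to the cell cycle machinery. Capitals mark CCAAT (or its reverse complement ATTGG), the box bound by the factor NF-Y, and TTTGAA (or TTCAAA), the core of the cell cycle homology region. Both were searched on both strands and do not overlap each other here.
Mki67 (chr7:135716380-135716629, minus strand): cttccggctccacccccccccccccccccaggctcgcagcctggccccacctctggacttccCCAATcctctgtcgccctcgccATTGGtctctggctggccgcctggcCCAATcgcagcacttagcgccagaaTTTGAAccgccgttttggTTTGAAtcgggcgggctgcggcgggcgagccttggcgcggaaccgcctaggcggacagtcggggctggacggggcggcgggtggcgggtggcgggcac
Top2a (chr11:99024190-99024439, minus strand): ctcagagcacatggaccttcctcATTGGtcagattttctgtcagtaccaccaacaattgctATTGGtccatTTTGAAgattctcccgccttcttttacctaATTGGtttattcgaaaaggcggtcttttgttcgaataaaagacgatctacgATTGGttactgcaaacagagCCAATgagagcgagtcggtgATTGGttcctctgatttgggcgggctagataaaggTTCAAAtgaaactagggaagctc
Draxin (chr4:148130699-148130948, minus strand): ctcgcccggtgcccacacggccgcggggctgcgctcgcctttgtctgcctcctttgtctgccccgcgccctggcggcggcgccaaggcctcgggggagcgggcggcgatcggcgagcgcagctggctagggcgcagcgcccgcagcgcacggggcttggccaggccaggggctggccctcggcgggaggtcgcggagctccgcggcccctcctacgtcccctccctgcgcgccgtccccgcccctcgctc
Mki67 held 3 CCAAT and 2 TTTGAA matches, Top2a 6 and 2, and Draxin 0 and 0. Among the other matched members, Sox4 held 4 CCAAT matches, Eomes 2, Dcx and Sox11 1 each and Neurod1 0, and only Sox11 held a TTTGAA match. Of all 32851 windows of 250 bases, 33.8% held CCAAT and 16% held TTTGAA. RefSeq windows were matched for 8 of the 10 members.

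Mki67 was at 1.33, 3.96, 2.05, 1.34 and 3.04 CPM in control replicates 1 to 5, and at 2.23, 3.27, 3.001, 3.54 and 2.18 CPM in the ICI libraries. In melanoma it was at 5.55, 2.94, 7.88, 1.61 and 6.08 CPM, and with ICI added at 1.15, 2.24, 2.94, 2.25 and 2.002 CPM. Melanoma replicates 1, 3 and 5 lay above all other 17 libraries, while melanoma replicate 4 was among the low ones, so the groups overlapped. The fitted log2 fold change was 1.04 ± 0.37 (SE) in melanoma against control (adjusted p = 0.825, edgeR). It was -1.18 ± 0.37 in melanoma plus ICI against melanoma (adjusted p = 0.825, edgeR).

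Top2a read 0.745, 1.79, 1.28, 1.15 and 1.48 CPM in the controls and 0.601, 0.794, 1.38, 1.48 and 0.844 CPM under ICI. Melanoma libraries read 3.03, 3.20, 6.41, 1.15 and 4.60 CPM and melanoma plus ICI libraries 1.40, 0.570, 3.06, 1.11 and 1.07 CPM. The top 3 values belonged to melanoma replicates 3, 5 and 2, and melanoma replicate 4 fell inside the control range. Against control, melanoma differed by a log2 fold change of 1.51 ± 0.42 (adjusted p = 0.656, edgeR), and melanoma plus ICI differed from melanoma by -1.34 ± 0.42 (adjusted p = 0.825, edgeR). In tumour-free mice, ICI against control gave 0.28 ± 0.37 for Mki67 and -0.33 ± 0.44 for Top2a, both within 1 SE of 0. The interaction was -1.46 ± 0.52 for Mki67 (adjusted p = 0.476, edgeR) and -1.01 ± 0.61 for Top2a (adjusted p = 0.504, edgeR). Leaving out the 4 libraries high in striatal markers gave -0.52 ± 0.53 for Mki67 and -0.72 ± 0.57 for Top2a.

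The striatal libraries moved with these values. Median Mki67 was 5.81 CPM in the 4 libraries high in striatal markers and 2.24 CPM in the other 16, and median Top2a was 3.83 and 1.15 CPM. With the striatum score in the fit, melanoma against control fell to 0.29 ± 0.41 for Mki67 and 0.74 ± 0.42 for Top2a on the log2 scale. Without the 4 libraries, Mki67 came to -0.05 ± 0.41 and Top2a to 0.74 ± 0.43, with 2 melanoma libraries left. For melanoma plus ICI against melanoma, the score in the fit gave -0.76 ± 0.35 for Mki67 and -0.995 ± 0.364 for Top2a, and leaving the 4 out gave -0.25 ± 0.43 and -1.06 ± 0.45. Prox1 in the fit moved neither gene by much: melanoma against control was 1.18 ± 0.38 for Mki67 and 1.44 ± 0.45 for Top2a. Since 3 of the 5 melanoma libraries are high in striatal markers, the 2 cannot be fully told apart with these libraries.

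The wider proliferation list had 20 of 22 genes tested. Its summed level overlapped between groups, from 84.1 to 114.9 CPM in control, 83.9 to 108.2 in ICI, 94.2 to 124 in melanoma and 85.5 to 116.1 in melanoma plus ICI. In melanoma against control, 17 of 20 were higher with a median log2 fold change of 0.37, and 9 had an unadjusted p below 0.05, but 0 passed the adjusted threshold. Over all tested genes the median was -0.01, and 2.7% were higher at an unadjusted p below 0.05. Among those 9 were Tpx2, a spindle assembly factor, at 0.72 ± 0.20, Ccna2, cyclin A2, at 0.57 ± 0.18, and Aurkb, the mitotic kinase Aurora B, at 1.52 ± 0.51. Rrm2, a subunit of ribonucleotide reductase, was at 0.85 ± 0.28 and Hmgb2, a chromatin protein of dividing cells, at 0.64 ± 0.22. With the striatum score in the fit 0 of 20 had a p below 0.05 and the median was 0.20, and without the 4 libraries the count was 0 and the median 0.12, with Tpx2 at 0.29 ± 0.24, Rrm2 at 0.12 ± 0.33 and Aurkb at 0.54 ± 0.66. In melanoma plus ICI against melanoma the median was -0.36, with 6 genes lower at an unadjusted p below 0.05, beside 2.87% of all genes, and 0 past the threshold. They included Birc5, the mitotic protein survivin, at -0.89 ± 0.27, Aurkb at -1.45 ± 0.51 and Prc1, which bundles the central spindle, at -0.44 ± 0.15. That median was -0.13 without the 4 libraries, and 1 of 20 had an unadjusted p below 0.05, beside 4.95% of all genes.

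**Figure D2:**
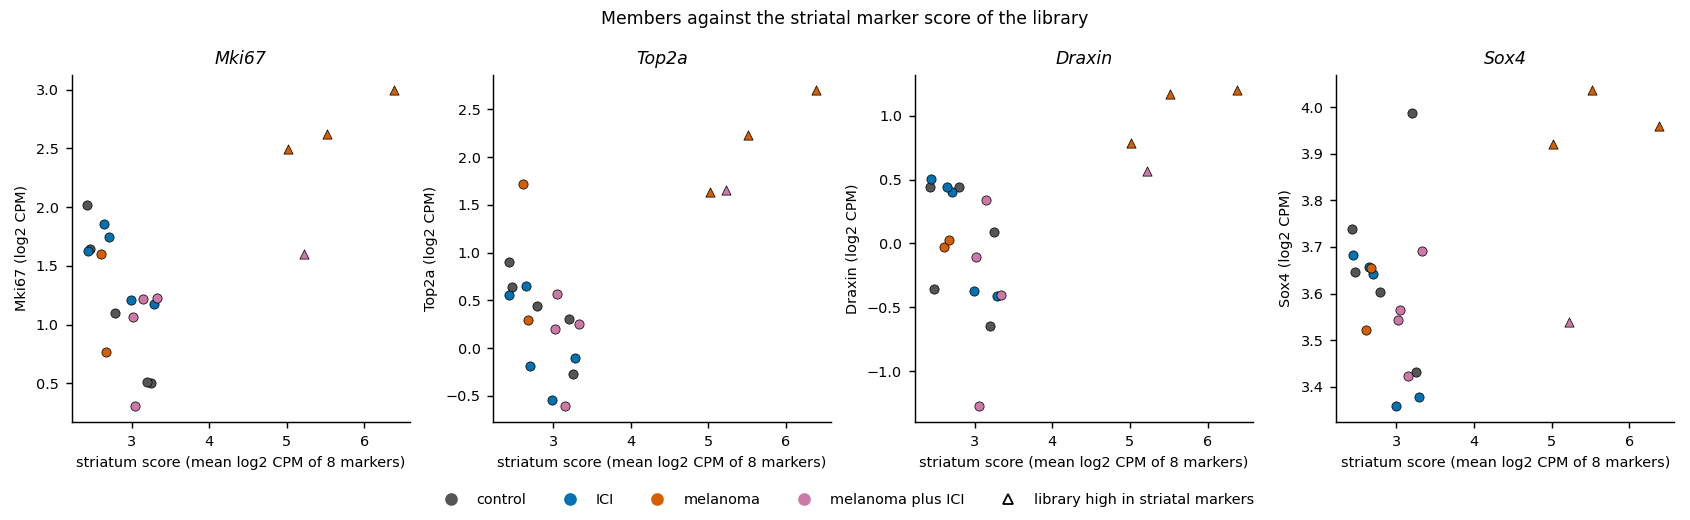
Log2 CPM of Mki67, Top2a, Draxin and Sox4 (y axes) against the striatum score of each library (x axis, mean log2 CPM of 8 markers), coloured by group. The 4 libraries with a score above 4 are the 4 highest for Draxin, and the 3 melanoma libraries among them are the 3 highest for Mki67.

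Draxin, on chromosome 4, read 0.980, 1.28, 1.28, 0.554 and 0.698 CPM in controls and 0.686, 1.24, 1.33, 1.28 and 0.667 CPM under ICI. It read 1.64, 0.896, 2.21, 0.933 and 2.17 CPM in melanoma and 0.328, 1.18, 1.39, 0.671 and 0.845 CPM in melanoma plus ICI. The 4 libraries high in striatal markers were the 4 highest of 20, from 1.39 to 2.21 CPM, whatever their group. Melanoma plus ICI against melanoma came to a log2 fold change of -0.82 ± 0.36 (adjusted p = 0.825, edgeR), and to -0.27 ± 0.46 without the 4 libraries. The locus overlaps Mad2l2 on the opposite strand with 0 shared exonic bases. Mad2l2 had 3503 counts in all, 671% of those of Draxin, and how strand was used in counting is not given in the sources used here.

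Eomes, the progenitor transcription factor also called Tbr2, varied most between animals. It read 0.118, 1.11, 0.0911, 2.12 and 1.19 CPM in controls and 0, 3.05, 0.429, 9.72 and 2.89 CPM under ICI, where replicate 1 had 0 counts, which allows up to 0.129 CPM. Melanoma libraries read 0.841, 0.640, 0.520, 4.16 and 1.52 CPM and melanoma plus ICI libraries 0.534, 2.81, 0.310, 8.96 and 0.133 CPM. Replicate 4 was the highest library of its group in all 4 groups, and the labels tie the replicate numbers to no litter, batch or day. The groups overlapped widely, and ICI against control gave a log2 fold change of 1.81 ± 1.10 (adjusted p = 0.767, edgeR), or 0.78 without ICI replicate 4. In melanoma plus ICI against control it was 1.47 ± 1.10, or 0.04 without melanoma plus ICI replicate 4 and 1.75 ± 1.18 without the 4 libraries high in striatal markers.

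Igfbpl1, a secreted binding protein made by neuroblasts, followed Eomes from library to library. Igfbpl1 was at 1.21, 4.30, 1.002, 4.34 and 2.05 CPM in controls and 0.558, 4.99, 2.33, 7.37 and 2.27 CPM under ICI. In tumour-bearing mice it was at 2.99, 1.62, 3.64, 9.12 and 6.38 CPM, and at 0.862, 5.58, 2.01, 10.98 and 0.623 CPM with ICI. Replicate 4 was again the highest library in each of the 4 groups, and all groups overlapped. Melanoma against control gave a log2 fold change of 0.88 ± 0.71 (adjusted p = 0.877, edgeR), or 0.49 without melanoma replicate 4 and 1.05 ± 0.97 without the 4 libraries high in striatal markers. Over 20 libraries the 2 genes had Pearson's r = 0.88 and Spearman's rho = 0.86 (permutation p = 1e-05 for r, the smallest that 100000 permutations can give, adjusted p = 0.00045 over 45 pairs of members). Within the 16 libraries low in striatal markers r was 0.91, and 0.89 without the 2 of them farthest from the median of Eomes. Eomes also had the markers of Cajal-Retzius cells beside it, early-born neurons that express Eomes during development: r = 0.74 with their summary score over 20 libraries (rho = 0.75, permutation adjusted p = 0.0175 over 130 relations with 13 lists), and 0.60 without the 2 libraries farthest from the median. Igfbpl1 had r = 0.67 with the same score (rho = 0.71, permutation adjusted p = 0.0336) and 0.53 without those 2. Both genes also ran with other lists. Igfbpl1 had r = 0.70 with 3 mossy cell markers (rho = 0.71, permutation adjusted p = 0.0247, 0.66 without the 2 farthest libraries) and r = 0.63 with 3 melanocyte markers (rho = 0.58, permutation adjusted p = 0.0462, 0.54 without 2), and the melanocyte relation did not pass by rho (permutation adjusted p = 0.0849). The 3 mossy cell markers were Csf2rb2, Drd2 and Glp1r, and Drd2 is also part of the striatum score. By rho alone, Igfbpl1 also passed with the score of subventricular zone neuroblasts (rho = 0.66, permutation adjusted p = 0.0474, against r = 0.60, permutation adjusted p = 0.0645). Eomes had r = 0.65 with the thalamus score (rho = 0.64, permutation adjusted p = 0.0342, 0.56 without 2). In the 16 libraries low in striatal markers, r with the Cajal-Retzius score was 0.77 for Eomes and 0.81 for Igfbpl1, and r was 0.69 for the mossy cell, 0.68 for the melanocyte, 0.60 for the neuroblast and 0.65 for the thalamus relation. The genes whose log2 CPM ran closest to Eomes over 20 libraries, of 15467 compared, were Lbhd2 (r = 0.91), Igfbpl1 and Prdm12 (r = 0.87).

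**Figure D3:**
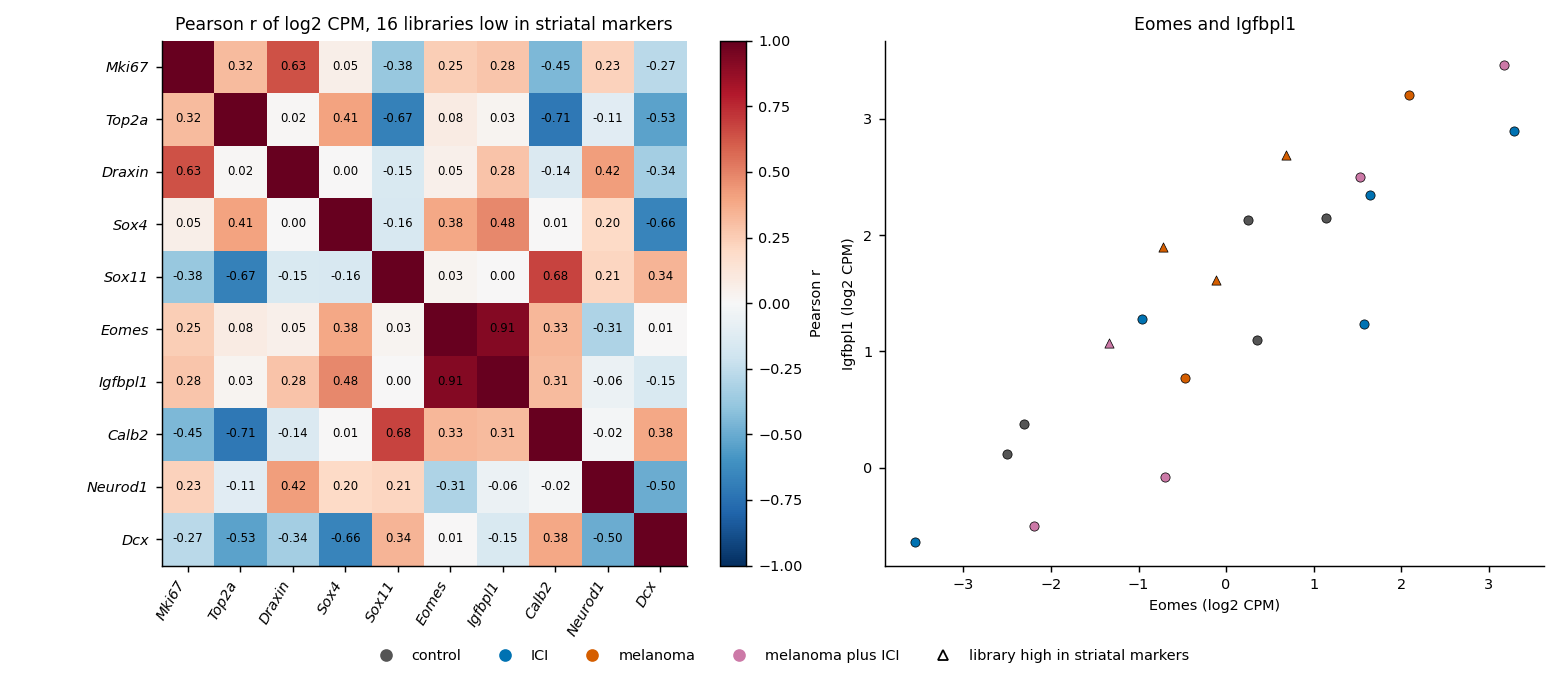
Left, Pearson's r between members over the 16 libraries low in striatal markers, from -1 to 1 by colour. Right, log2 CPM of Igfbpl1 (y axis) against Eomes (x axis) in all 20 libraries by group, where low Eomes goes with low Igfbpl1 and r is 0.88.

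The pairs of members that passed differed with and without the 4 libraries high in striatal markers. Over all 20 libraries, 4 of 45 pairs passed an adjusted p of 0.05 by r. Besides Eomes with Igfbpl1, Mki67 with Draxin had r = 0.81 (rho = 0.74, permutation adjusted p = 0.000675). Mki67 with Top2a, the 2 division genes, had r = 0.72 (rho = 0.61, permutation adjusted p = 0.00615), and Top2a with Sox4 had r = 0.66 (rho = 0.58, permutation adjusted p = 0.02). Leaving out the 2 libraries farthest from the median of the first gene gave 0.71, 0.50 and 0.44 for these 3 pairs, in the order given. Within groups, as deviations from the group means, r was 0.75, 0.69 and 0.50. In the 16 libraries low in striatal markers r was 0.63, 0.32 and 0.41, and none of the 3 passed there. By rho over 20 libraries, Eomes with Igfbpl1, Mki67 with Draxin and Top2a with Calb2 (rho = -0.67, permutation adjusted p = 0.0244 for rho, r = -0.55) passed.

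In those 16 libraries, chosen after their values were seen, 5 of 45 pairs passed by r, and by rho only Eomes with Igfbpl1 did. The other 4 were Top2a with Calb2 (r = -0.71, rho = -0.54), Top2a with Sox11 (r = -0.67, rho = -0.59), Sox11 with Calb2 (r = 0.68, rho = 0.51) and Sox4 with Dcx (r = -0.66, rho = -0.64), each with a permutation adjusted p of 0.0417 by r. Over all 20 libraries r was -0.55, 0.13, 0.53 and -0.20 for these 4 pairs, and none passed by r. Leaving out the 2 of the 16 farthest from the median of the first gene gave -0.44, -0.50, 0.49 and -0.65.

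Neurod1, on chromosome 2, is a proneural transcription factor that stays on in mature granule cells. Its values were 18.3, 23.6, 23.7, 18.1 and 17.5 CPM in controls and 24.7, 21.4, 28.96, 20.8 and 11.6 CPM under ICI. Melanoma libraries gave 20.3, 14.6, 15.6, 17.5 and 12.9 CPM, and melanoma plus ICI libraries gave 20.04, 20.8, 7.93, 17.3 and 16.5 CPM. The lowest library of all was melanoma plus ICI replicate 3 and the highest ICI replicate 3, which are also the lowest and the highest in Prox1. No contrast reached an unadjusted p of 0.05: melanoma plus ICI against ICI, the one with the smallest p, gave -0.38 ± 0.23 on the log2 scale (adjusted p = 0.612, edgeR), and 0.02 ± 0.20 with Prox1 in the fit. Without melanoma plus ICI replicate 3 it was -0.20. Neurod1 overlaps Cerkl on the same strand over 201 exonic bases, and Cerkl had 16% as many counts as Neurod1.

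Dcx, the microtubule-binding protein doublecortin, is the usual marker of neuroblasts and is X-linked. It was counted at 25.8, 12.7, 16.5, 14.9 and 18.3 CPM in controls and at 25.4, 26.4, 11.1, 16.02 and 27.8 CPM in ICI mice. Counts in melanoma gave 22.2, 20.8, 30.8, 16.9 and 24.9 CPM, and in melanoma plus ICI 21.6, 24.6, 29.3, 26.1 and 20.9 CPM. The 5 melanoma plus ICI libraries lay above 4 of the 5 controls, and control replicate 1 lay among them. The log2 fold change was 0.47 ± 0.23 in melanoma plus ICI against control (adjusted p = 1.00, edgeR), 0.21 ± 0.19 with Prox1 in the fit, and 0.40 ± 0.24 without the 4 libraries high in striatal markers. For ICI alone against control it was 0.27 ± 0.23, with a 95% interval from -0.21 to 0.75, and it ran from 0.16 without ICI replicate 5 to 0.45 without control replicate 1.

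Dentate content varied between libraries and the members followed it differently. Prox1 itself was at 38.5, 181, 105, 66.1 and 109 CPM in controls and 76.8, 109, 187, 154 and 51.4 CPM under ICI. In melanoma it was at 131, 60.3, 42.4, 65.1 and 66.02 CPM, and in melanoma plus ICI at 47.1, 66.8, 21.9, 75.9 and 53.8 CPM. The 5 melanoma plus ICI values reached at most 75.9 CPM, and the ranges of the groups overlapped. The 10 tested genes of mature granule cells were 0.82 lower by their median log2 fold change in melanoma plus ICI against control, with 5 at an unadjusted p below 0.05, where 1.28% of all genes were lower by that rule, and 0 of them passed the threshold. Lct, the lactase gene and a granule cell marker in mouse, was at -2.40 ± 0.84 in that contrast. The median of the 10 genes was -0.66 without the 4 libraries high in striatal markers, with 2 at an unadjusted p below 0.05, beside 2.11% of all genes, and Lct was at -2.15 ± 0.81. Beside these values, in the same contrast, 0 of 8 CA1 and CA3 pyramidal markers were higher, with a median of -0.40 and 2 lower at an unadjusted p below 0.05, and 7 of 7 neocortex markers were higher, with a median of 0.18. Without the 4 libraries 2 of 8 and 3 of 7 were higher, with medians of -0.19 and -0.16. In melanoma plus ICI against ICI, 10 of 10 granule cell genes were lower, with a median of -0.94 and 8 at an unadjusted p below 0.05, beside 4.51% of all genes, and 0 past the threshold. Dsp, which encodes desmoplakin, was at -2.08 ± 0.73 there, and at -1.90 ± 0.71 without the 4 libraries, where the median of the list was -0.76 and 5 had such a p, beside 6.61% of all genes. There too 0 of 8 pyramidal markers were higher, with a median of -0.61 and 2 at an unadjusted p below 0.05, while 7 of 7 neocortex markers were higher, with a median of 0.43 and 2 by that rule, and 6 of 6 meningeal markers, with a median of 0.72 and 3 by that rule, beside 8.63% of all genes. The part of these other markers in the granule cell values was not tested.

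Taken as a percentage of the Prox1 level of the same library, Dcx ranged from 7.01 to 67.1 in controls, from 5.93 to 54.2 under ICI, from 16.9 to 72.7 in melanoma and from 34.3 to 134 in melanoma plus ICI. Neurod1 on the same scale ranged from 12.98 to 47.6 in controls, from 13.5 to 32.1 under ICI, from 15.5 to 36.9 in melanoma and from 22.7 to 42.6 in melanoma plus ICI. All groups overlapped for both genes. The Dcx ratio is highest in melanoma plus ICI replicate 3, where Prox1 is lowest, so it carries the spread of Prox1 as well as that of the member.

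Over 20 libraries, Neurod1 was higher where Prox1 was higher (r = 0.75, rho = 0.71, permutation adjusted p = 0.0009 for r over 10 members). Dcx ran the other way (r = -0.70, rho = -0.60, permutation adjusted p = 0.0026). Both relations passed within groups, as deviations from the group means (r = 0.71 and -0.68, permutation adjusted p = 0.0153 for each), although by rho the adjusted p was 0.0725 for each. Neither passed without ICI replicate 3 and melanoma plus ICI replicate 3, the libraries farthest from the median of Prox1. Without them r was 0.55 and -0.58, and the permutation adjusted p was 0.0935 for each. With the score of the other dentate markers in place of Prox1, r over 20 libraries was 0.76 and -0.75 (permutation adjusted p = 0.0008 for each). Prox1 was not the only measure beside Neurod1. Its r was 0.72 with the score of CA1 and CA3 pyramidal cells (rho = 0.56, permutation adjusted p = 0.0255 over 130 relations) and -0.62 with the neocortex score (rho = -0.55, permutation adjusted p = 0.0471), and by rho neither passed. Without the 2 libraries farthest from the median of each score these were 0.54 and -0.56, and without the 4 libraries high in striatal markers 0.45 and -0.43. Dcx ran against the pyramidal score (r = -0.72, rho = -0.80, permutation adjusted p = 0.0175 over 130 relations), and r was -0.78 without the 2 libraries farthest from the median of that score and -0.74 without the 4. The other 8 members had r between -0.13 and 0.27 with Prox1, and none passed. Leaving out melanoma replicate 3 gave r = 0.47 (permutation adjusted p = 0.142) and rho = 0.63 (permutation adjusted p = 0.0228) for Mki67, which passed by rho.

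In the 16 libraries low in striatal markers, Mki67 had r = 0.79 with Prox1 (rho = 0.81, permutation adjusted p = 0.0041) and 0.74 without the 2 of them farthest from the median of Prox1. Draxin had r = 0.60 there (rho = 0.64, permutation adjusted p = 0.0328), and 0.48 without those 2. Over all 20 libraries r was 0.27 for Mki67 and 0.16 for Draxin. In the same 16 libraries Neurod1 had r = 0.64 (rho = 0.63, permutation adjusted p = 0.0226) and Dcx r = -0.68 (rho = -0.53, permutation adjusted p = 0.0192), which did not pass by rho (permutation adjusted p = 0.0738). Without the 2 of them farthest from the median of Prox1, r was 0.45 for Neurod1 and -0.40 for Dcx. The choice of these 16 libraries was made after their values were seen.

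**Figure D4:**
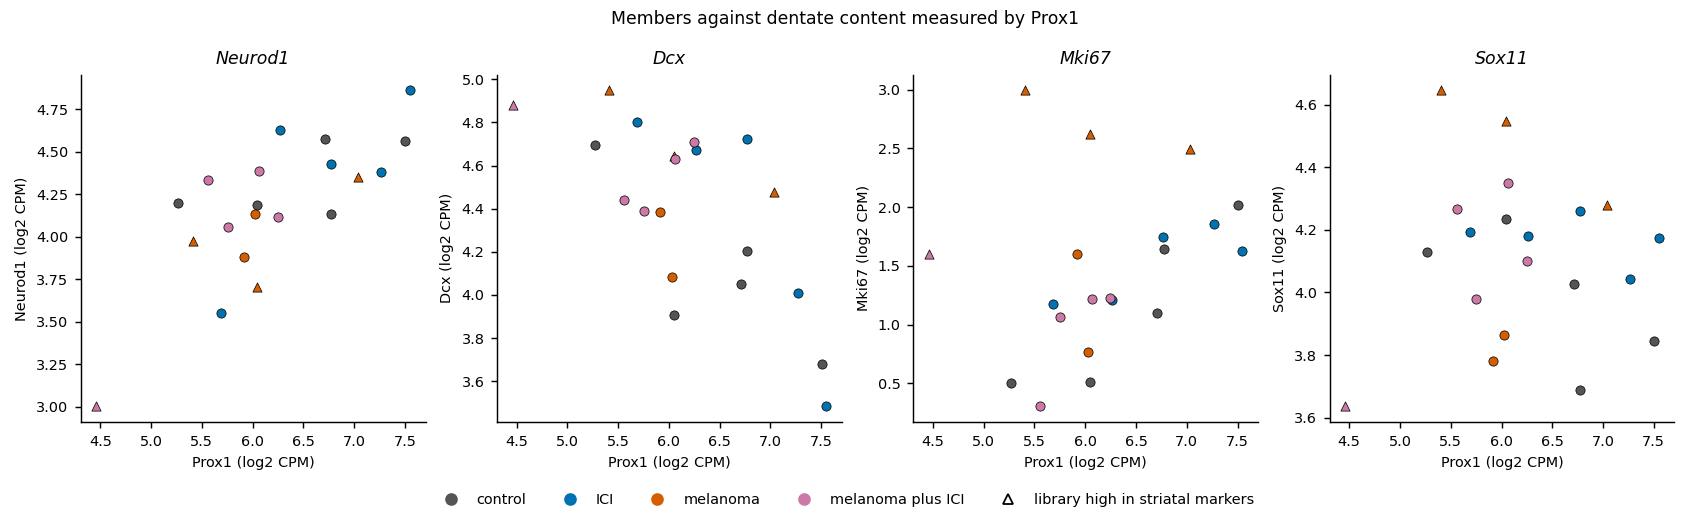
Log2 CPM of Neurod1, Dcx, Mki67 and Sox11 (y axes) against Prox1 (x axis, log2 CPM) in 20 libraries by group, with triangles for the 4 libraries high in striatal markers. Neurod1 is higher and Dcx lower where Prox1 is high, Mki67 follows Prox1 apart from the triangles, and Sox11 shows no slope over the 20 libraries (r = -0.02).

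Sox4 and Sox11, related transcription factors of young neurons, varied little. Sox4 stood at 10.7, 13.3, 12.1, 15.8 and 12.4 CPM in controls and at 10.2, 12.4, 12.8, 12.5 and 10.3 CPM in ICI mice. It stood at 15.1, 11.4, 15.5, 12.5 and 16.3 CPM in melanoma and at 11.7, 10.6, 11.5, 12.8 and 11.6 CPM in melanoma plus ICI. Melanoma replicates 1, 3 and 5 were 3 of the 4 highest, beside control replicate 4. In melanoma plus ICI against melanoma it gave -0.28 ± 0.12 on the log2 scale (adjusted p = 0.825, edgeR), and -0.03 ± 0.15 without the 4 libraries high in striatal markers. Sox11 stood at 17.4, 14.3, 16.2, 18.7 and 12.8 CPM in controls and at 18.1, 19.1, 17.96, 16.4 and 18.2 CPM in ICI mice. It stood at 19.3, 13.7, 24.95, 14.5 and 23.3 CPM in melanoma and at 19.2, 20.3, 12.3, 17.1 and 15.7 CPM in melanoma plus ICI. The highest and the lowest library, melanoma replicate 3 and melanoma plus ICI replicate 3, are both among the 4 high in striatal markers. Melanoma against control gave 0.27 ± 0.16 for Sox11 (adjusted p = 0.877, edgeR) and -0.18 ± 0.14 without the 4 libraries, or 0.15 without melanoma replicate 3 alone. Melanoma plus ICI against melanoma gave -0.18 ± 0.16 for Sox11 with all libraries and 0.37 ± 0.15 without the 4. Sox11 had r = 0.69 with markers of calretinin interneurons (rho = 0.68, permutation adjusted p = 0.0247 over 130 relations, 0.59 without the 2 farthest libraries and 0.56 without the 4). That score averages Vip, Htr3a, Prox1 and Penk, as Calb2 is itself a member. Prox1 is also the dentate measure, and Penk ranged from 14.1 to 250 CPM over the libraries.

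Calb2, on chromosome 8, was the most abundant member. Calb2 read 45.5, 11.1, 38.05, 59.5 and 18.8 CPM in controls and 35.4, 44.4, 24.5, 55.3 and 41.2 CPM under ICI. It read 25.7, 8.53, 29.7, 41.2 and 32.6 CPM in melanoma and 36.9, 71.6, 9.25, 83.98 and 37.5 CPM in melanoma plus ICI. The melanoma plus ICI group holds the highest value and, after melanoma replicate 2, the lowest. Besides immature granule neurons, calretinin is made by interneurons, mossy cells and Cajal-Retzius cells of the hippocampus, so its level is not specific to neurogenesis. No contrast reached an unadjusted p of 0.05, and melanoma plus ICI against melanoma came to 0.80 ± 0.49 (adjusted p = 0.825, edgeR). It was 0.50 without melanoma plus ICI replicate 4, 1.07 without melanoma plus ICI replicate 3 and 1.21 ± 0.64 without the 4 libraries high in striatal markers.

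**Figure D5:**
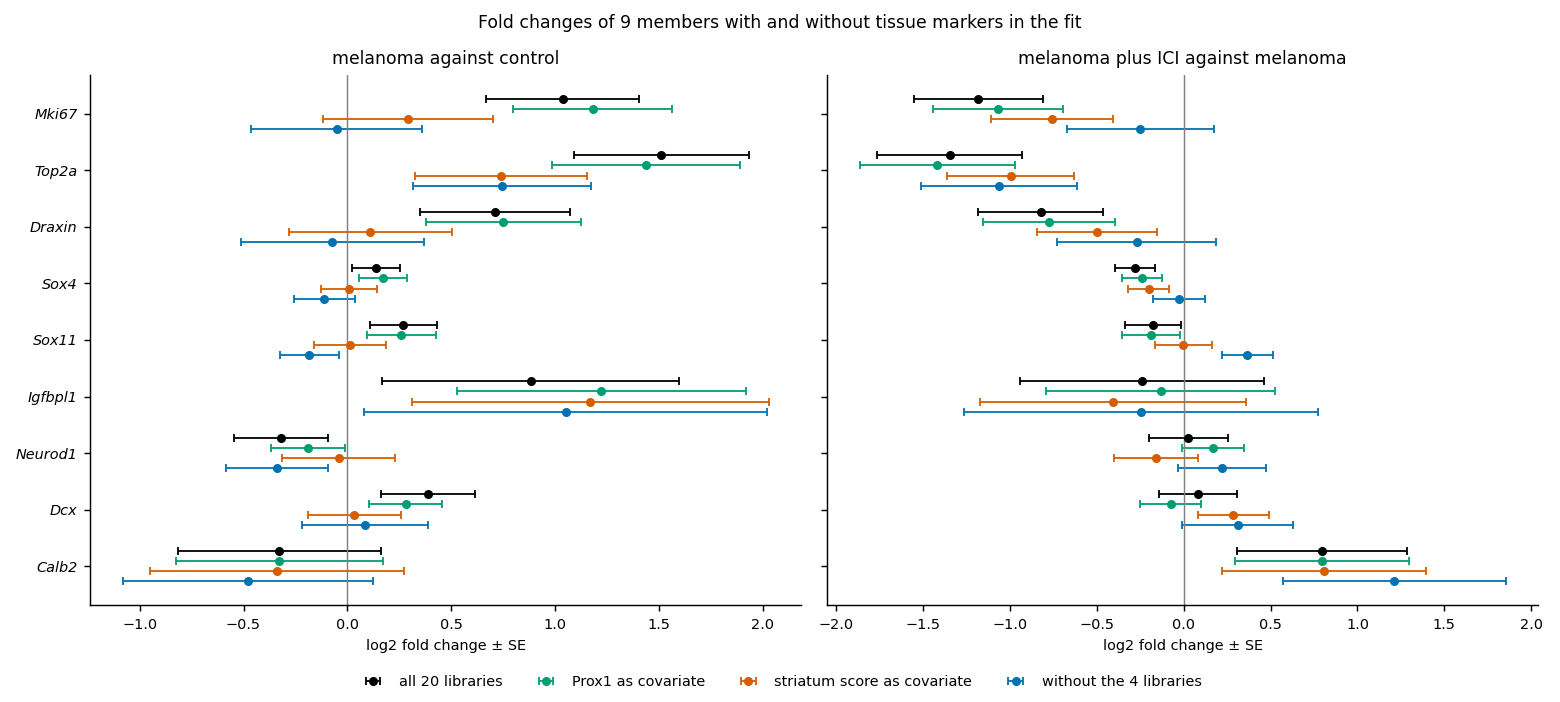
Log2 fold change with its SE (x axes) of 9 members (y axis; Eomes is left out for its wide error) in melanoma against control (left) and melanoma plus ICI against melanoma (right), by fit (colour). For Mki67 in melanoma against control, the estimate is 1.04 with all 20 libraries and -0.05 without the 4 libraries high in striatal markers.

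Other stages of the lineage gave no gene past the threshold in any contrast. Of 11 radial glia-like stem cell genes tested, Fabp7, a fatty acid binding protein of radial glia and astrocytes, had the smallest p: 1.07 ± 0.30 in melanoma plus ICI against melanoma (adjusted p = 0.825, edgeR) and 1.59 ± 0.42 in the interaction (adjusted p = 0.346, edgeR). These were 1.51 ± 0.29 (adjusted p = 0.416, edgeR) and 2.04 ± 0.35 (adjusted p = 0.284, edgeR) without the 4 libraries high in striatal markers. Of the whole list, 6 of 11 were higher in melanoma plus ICI against melanoma, with a median of 0.13 and 1 at an unadjusted p below 0.05, and 10 of 11 in the interaction, with a median of 0.39 and 2 by that rule, which took in 5.5% and 10.3% of all genes. With the 4 left out the same numbers were higher, the medians were 0.20 and 0.47, and 2 and 3 genes had a p below 0.05, beside 4.95% and 6.75% of all genes. In melanoma plus ICI against melanoma, 7 of 7 choroid plexus markers were higher with all libraries, with a median of 1.38. So were 6 of 6 meningeal markers, with a median of 0.63. The part of these tissues in the stem cell values was not tested. Of 8 intermediate progenitor genes, 5 were higher in melanoma against control, with a median of 0.19, and without the 4 libraries 4 were higher with a median of 0.01. In melanoma plus ICI against melanoma 1 of the 8 was higher, with a median of -0.28. There 2 were lower at an unadjusted p below 0.05, beside 2.87% of all genes. The interaction had 2 of 8 higher, with a median of -0.30. Nhlh1, a transcription factor of newborn neurons at a mean of 1.38 CPM, gave -1.44 ± 0.50 in melanoma plus ICI against control and -1.54 ± 0.50 in melanoma plus ICI against ICI, and -1.43 ± 0.53 and -1.52 ± 0.53 without the 4. In those contrasts 2 and 3 of the 8 progenitor genes were higher. In each, 1 was lower at an unadjusted p below 0.05, beside 1.28% and 4.51% of all genes. The 18 tested genes of immature granule neurons, the list closest to Dcx, had medians from -0.06 to 0.07 over the 6 contrasts, with 2 lower at an unadjusted p below 0.05 in melanoma plus ICI against control and 2 lower in melanoma plus ICI against ICI, where 1.28% and 4.51% of all genes were. Without the 4 libraries, 19 of these genes were tested and the medians ran from -0.13 to 0.14. Of 15 niche signals, Nog, the BMP antagonist noggin, gave 0.99 ± 0.30 in the interaction (adjusted p = 0.432, edgeR), and 0.996 ± 0.378 without the 4 libraries. In the interaction 9 of the 15 were higher, with a median of 0.21 and 5 at an unadjusted p below 0.05, of which 4 were higher, beside 10.3% of all genes, and without the 4 libraries 11 were higher, with a median of 0.24 and 4 by that rule, beside 6.75%. Igf2, a growth factor, gave 2.16 ± 0.70 in the interaction (adjusted p = 0.476, edgeR), or 2.05 ± 0.90 without the 4, beside 7 choroid plexus markers, another source of Igf2, whose sum ranged from 20.03 to 6516 CPM over the libraries. In the interaction 7 of 7 choroid plexus markers were higher, with a median of 2.76 and 2 at an unadjusted p below 0.05, and 6 of 6 meningeal markers, with a median of 1.03 and 3 by that rule, beside the same 10.3% of all genes. All of them were higher again without the 4 libraries, with medians of 1.90 and 1.41. Their part in the Igf2 values was not tested.

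Markers of other cell types were read beside the same members. The 8 markers of subventricular zone neuroblasts, another source of Dcx and Sox11, summed to 106 to 185 CPM in control, 102.2 to 199.2 in ICI, 154 to 286 in melanoma and 151 to 229 in melanoma plus ICI. All 8 were higher in melanoma against control, 3 of them at an unadjusted p below 0.05, where 2.7% of all genes were higher by that rule, and 0 past the threshold. With the striatum score in the fit, and likewise without the 4 libraries, all 8 were higher and 0 had a p below 0.05, with medians of 0.22 and 0.27 on the log2 scale beside 0.50 in the fit on all libraries. Microglial markers summed to 214 to 266 CPM over all 20 libraries, without a visible difference between groups. T cell markers summed to at most 16.8 CPM, and Cd4, with 16.3 CPM in that library, was highest in the 4 libraries high in striatal markers. Cd3e, Cd3d, Cd3g and Cd8a, which define T cells, were at 0 counts in 6, 17, 12 and 7 of the 20 libraries. The part of these cells in the members' levels was not tested.

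By likeness over the 20 libraries, measured by Pearson's r of log2 CPM among 15467 genes, Lbhd2 was the nearest gene of both Eomes and Igfbpl1 (r = 0.91 and 0.89). The libraries differ in regional content, so these values describe only how genes varied together over the libraries. In the 16 libraries low in striatal markers, r with the genes named in the next sentences ran from 0.64 to 0.95. Mki67 was closest to Strn (r = 0.93), Mcm7 (0.89) and Vcan (0.88), and Top2a to Pou3f4 (0.90), Carhsp1 (0.90) and Scn4b (0.88). Mcm7 encodes a subunit of the replicative helicase. In those 16 libraries Top2a had r = 0.67 with Pou3f4, 0.86 with Carhsp1 and 0.69 with Scn4b. Draxin was closest to Pde10a (0.87), Gng7 (0.84) and Crebbp (0.84), of which Pde10a and Gng7 are abundant in striatum. The part of striatal tissue in the genes nearest Mki67 and Top2a was not tested. Neurod1 was closest to Bhlhe22 (0.94), F730043M19Rik (0.92) and Cdh9 (0.92), and Dcx to 9330182L06Rik (0.94), Flrt1 (0.91) and Pgap1 (0.91). Calb2 had Rbms3 (0.87), Sox11 had Smarca1 (0.83) and Sox4 had Shb (0.79) as the nearest gene. No member other than Eomes and Igfbpl1 had another member among its 3 nearest genes.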

How the data were processed

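Bulk RNA-seq was available for 20 mouse hippocampal libraries, 5 per group, with groups and replicate numbers taken from the sample titles. The authors deposited 1 table of raw counts per gene for each library, with gene coordinates, in the featureCounts layout per the file headers. Per the submitters' processing notes, STAR 2.5.2b and DESeq2 1.16.1 were used, with no role stated. The genome build and the strand setting are not given in the sources used here. The deposited gene coordinates of all 10 members and Prox1 equal those of GENCODE M21, an annotation of GRCm38, which supplied the symbols.

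Genes were kept by filterByExpr (minimum count 10, minimum total 15), which left 18427. After TMM scaling, edgeR 4.0.16 in R 4.3.3 (quasi-likelihood, robust) was run on the 20 libraries together, with 1 mean per group and 6 contrasts, and p-values were adjusted by Benjamini-Hochberg over all genes. The script was tested on simulated data first. CPM is counts per 1000000 of the scaled library size, and log2 CPM used a prior count of 2. Correlations over libraries used 100000 two-sided permutations with NumPy 2.4.6 and SciPy 1.17.1. Pairs of libraries within a group differed by a chi-square of 11 to 128 per gene over 40 pairs, so none was a repeat of another. The labels name 1 hippocampus per mouse, so replicates were taken as animals.

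Genes given with fold changes outside the 10 members were taken from those of the listed pathways with an unadjusted p below 0.01 in a contrast, and, for likeness, the 3 genes closest by Pearson's r among those with a mean of at least 1 CPM. The rule also allowed the 2 most abundant genes of a list, which are not all given here. Genes that overlap a member and the defining T cell markers were named outside this rule. Alternatives were DESeq2 1.42.0 (size factors, or its Wald test), no filter, the replicate number as a block, Prox1 or the striatum score as covariate, only the groups compared, and each library left out in turn. Leaving out the 2 libraries that stood apart or the 4 high in striatal markers was added after the data were seen. The members and lists were chosen with earlier results of these data known.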

Additional observations from a re-analysis of the deposited data

Results flagged for a closer look

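Eomes in melanoma replicate 4 was at 4.16 CPM, far above the other 4 melanoma libraries, of which the next was at 1.52 CPM. Prox1 in melanoma replicate 1 was at 131 CPM, with the next melanoma library at 66.0 CPM. These were the 2 groups of 5 with such a gap out of 44 tested, a number close to the 1 in 20 that chance gives.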

How the results depend on the processing

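No member passed the adjusted threshold in any contrast under any alternative run, and the number of all genes past it was 0 with edgeR on the 20 libraries. DESeq2's Wald test called 47 genes for the interaction, 9 for melanoma plus ICI against ICI, 8 for melanoma against control and 1 for ICI against control. Fitting only the groups compared called 3 genes for melanoma against control. Leaving out the 2 libraries that stood apart (control replicate 4 and melanoma plus ICI replicate 1) called 1 for the interaction, and leaving out the 4 libraries high in striatal markers called 1 for melanoma plus ICI against melanoma. With 1 library left out in turn, the count ran from 0 to 3 for melanoma against control, from 0 to 12 for melanoma plus ICI against melanoma and from 0 to 11 for the interaction, each highest without melanoma plus ICI replicate 3. The cause was not tested.

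Of the 60 fold changes of members, 7 changed sign with Prox1 in the fit, 5 with the striatum score, 3 without the 2 libraries apart and 11 without the 4 libraries, while DESeq2, no filter and the replicate block changed 0, and fitting only the groups compared changed 0 of the 50 it gave, which leave out the interaction. With Prox1, the changes included Neurod1 and Eomes in melanoma plus ICI against ICI (to 0.015 and 0.44), Dcx there (to -0.14) and in melanoma plus ICI against melanoma (to -0.08), Mki67 in melanoma plus ICI against control (to 0.11), and Neurod1 in ICI against control (to -0.04) and in the interaction (to 0.21). Without the 4 libraries they included Mki67 (to -0.051), Sox4 (to -0.11), Sox11 (to -0.18) and Draxin (to -0.07) in melanoma against control, and Sox11 in melanoma plus ICI against melanoma (to 0.37). Leaving out 1 library changed the sign of 19 of the 60 at least once, among them Eomes in melanoma against control (to -0.08 without melanoma replicate 4). The members' median in melanoma plus ICI against ICI went from -0.04 to 0.07 without ICI replicate 4. Without the 2 libraries farthest from the median of Prox1, the correlations with Prox1 no longer passed for Neurod1 (r = 0.55) and Dcx (r = -0.58). Without the 4 libraries they passed for Mki67 (r = 0.79) and Draxin (r = 0.60). With 1 library left out, r with Prox1 ran from -0.31 to 0.11 for Sox11, from -0.27 to 0.23 for Calb2, from -0.21 to 0.0057 for Top2a and from 0.197 to 0.468 for Mki67.

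Over genes with a mean of at least 1 CPM, same-numbered libraries did not deviate together as a whole: over 30 same-numbered pairs the correlation ran from -0.406 to 0.643, and 6 of 20 libraries correlated best with their own number. Eomes and Igfbpl1 were each highest in replicate 4 of all 4 groups. With the replicate block, 0 genes passed in each contrast. At an unadjusted p below 0.05 the members' count went from 2 to 4 in melanoma against control (4.89% of all genes by that rule), from 0 to 1 in ICI against control (4.98%) and in melanoma plus ICI against control (1.87%), and from 1 to 2 in the interaction (9.38%). Mki67 gave 1.05 and Top2a 1.41 in melanoma against control. The block gave 1.48 ± 0.68 for Eomes in ICI against control and 1.09 ± 0.50 for Igfbpl1 in melanoma against control, and in melanoma plus ICI against melanoma it moved Eomes from 0.73 to 0.13 and Igfbpl1 from -0.24 to -0.77. Without the block, both signs in that last contrast turned with 1 library left out. Eomes went to -0.69 without melanoma plus ICI replicate 4 and Igfbpl1 to 0.14 without melanoma replicate 4.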
